A study of Mus musculus with 3 samples.

Results

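The genes described here encode the proteins of the small (40S) subunit of the cytosolic ribosome, measured in mouse four-cell embryos. They were chosen by name alone, as every gene on the array called Rps followed by a number, or Rpsa, without the S6 kinases (names starting Rps6k). This gave 33 of the 27670 named genes or accessions on the array, with 59 probes of 60 bases. Of these, 43 probes for 32 genes gave enough signal to be tested, among 7254 genes tested in all. One name of the 33, Rps19bp1, belongs to a protein that binds S19 and is no ribosomal protein, and it is kept apart where it matters.

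The HP embryos came from oocytes held for 60 min at 37 °C under a high hydrostatic pressure of 20 MPa, and the control embryos from oocytes handled alike without pressure. Both kinds of oocyte were then fertilised by injection of a sperm, per the sample labels, and cultured to the four-cell stage, whereas the title of the series speaks of in vitro fertilisation. Replicates 1, 2 and 3 pooled 44, 30 and 37 HP embryos, beside 36, 33 and 24 control embryos. On each of 3 two-colour Agilent arrays a Cy5-labelled HP pool met the Cy3-labelled control pool of its number, so dye and treatment cannot be told apart on any array. The labels give no strain or age.

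The small subunit binds the messenger RNA, scans it for a start codon and reads each codon against transfer RNA. Its proteins surround the 18S ribosomal RNA and are made in equal numbers, from transcripts that typically begin with a run of pyrimidines, the 5′ terminal oligopyrimidine (TOP) tract, through which their translation answers to nutrients and to mTOR. In the mouse embryo the ribosomes of the first cleavages are largely those stored in the oocyte, and transcription of new ribosomal genes begins with activation of the embryonic genome.

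The probes are shown first for the genes whose values the text turns on and whose probe reads as coding sequence (at least 1 reading frame without a stop codon), because each value is the brightness of such a probe. Rps25 had one of the smallest p-values of the group, and the Rps28 probe shown is the lowest of the 3 probes of that gene. All are printed 5′ to 3′ in the sense of the transcript, with positions from the design of the array (mouse mm7). The Rps25 probe lies at chr9:44343108-44343167 on the plus strand and the Rps28 probe at chr17:31897157-31897216 on the minus strand.
Rps25: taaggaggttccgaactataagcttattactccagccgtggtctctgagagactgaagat
Rps28: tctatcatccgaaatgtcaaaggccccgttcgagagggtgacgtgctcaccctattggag

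The next probes are shown because probes of the same gene gave unlike values. The inner probe of Rps3 spans chr7:95513146-95513420 on the minus strand, longer than the probe, so its placement in the array design is interrupted, and lies upstream of the brighter end probe of this gene. The end probe of Rps18, at chr17:32030069-32030128 on the minus strand, holds the stop codon, printed in capitals, and the inner probe of Rps18 lies upstream of it at chr17:32030556-32030615.
Rps3 inner probe: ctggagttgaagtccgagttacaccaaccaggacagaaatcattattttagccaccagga
Rps18 end probe: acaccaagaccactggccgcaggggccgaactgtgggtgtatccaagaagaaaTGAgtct
Rps18 inner probe: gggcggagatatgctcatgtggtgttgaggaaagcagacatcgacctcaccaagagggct

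Most small subunit transcripts had a lower signal in HP embryos than in control embryos, by a modest amount. Of the 32 tested genes, 30 had a mean log2 ratio (HP over control) below 0, beside 3753 of all 7254 tested genes. On all 3 arrays 22 were below 0, where 25% of all tested genes were. The values ran from −1.25 for Rps4x to 0.18, with a median of −0.43, beside −0.01 over all tested genes. Rps27l alone was above 0 on all 3 arrays, where 23.2% of all genes were, and 9 genes had mixed signs. At an unadjusted limma p under 0.05, 16 small subunit genes were lower and 0 higher in HP, beside 11.2% of all genes lower and 7.25% higher. Among the 16 were Rps2, Rps3, Rps3a, Rps4x, Rps16, Rps18, Rps19, Rps21, Rps24, Rps25, Rps27, Rps27a and Rps28. None passed an adjusted p of 0.05 over all genes, where 0% of genes did, and the lowest adjusted p was 0.174 (limma, Benjamini-Hochberg).

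In 17 of the 32 genes all 3 HP pools lay under all 3 control pools, where 13.2% of all genes did, and in 0 genes all HP pools lay over all control pools, where 13.1% of all genes did. The pools of the other 15 genes overlapped. By single probes, 22 of the 43 tested were lower and 0 higher at an unadjusted limma p under 0.05, beside 10.8% of the 8590 tested probes that were lower. Of the 43 probes, 38 had a mean below 0 and 30 were below 0 on all 3 arrays, which was not counted over all tested probes. The filter was passed through the control channel alone by the probe of Rpsa and 1 probe of Rps2, which favours a lower value. Over the 41 probes tested through both channels, a count added after the data were seen, 36 had a mean below 0, 28 were below 0 on all 3 arrays and 22 were lower at an unadjusted limma p under 0.05. The shares over all probes, or over all genes, tested through both channels were not counted. Of the 31 genes other than Rpsa, 21 were below 0 on all 3 arrays and the same number, 16, was lower. Without Rps19bp1 the median of the other 31 genes was −0.45 and the same 16 genes were lower. Fewer cells with the transcript and less RNA per cell cannot be told apart in such pools, and the labels give no RNA quality.

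**Figure D1:**
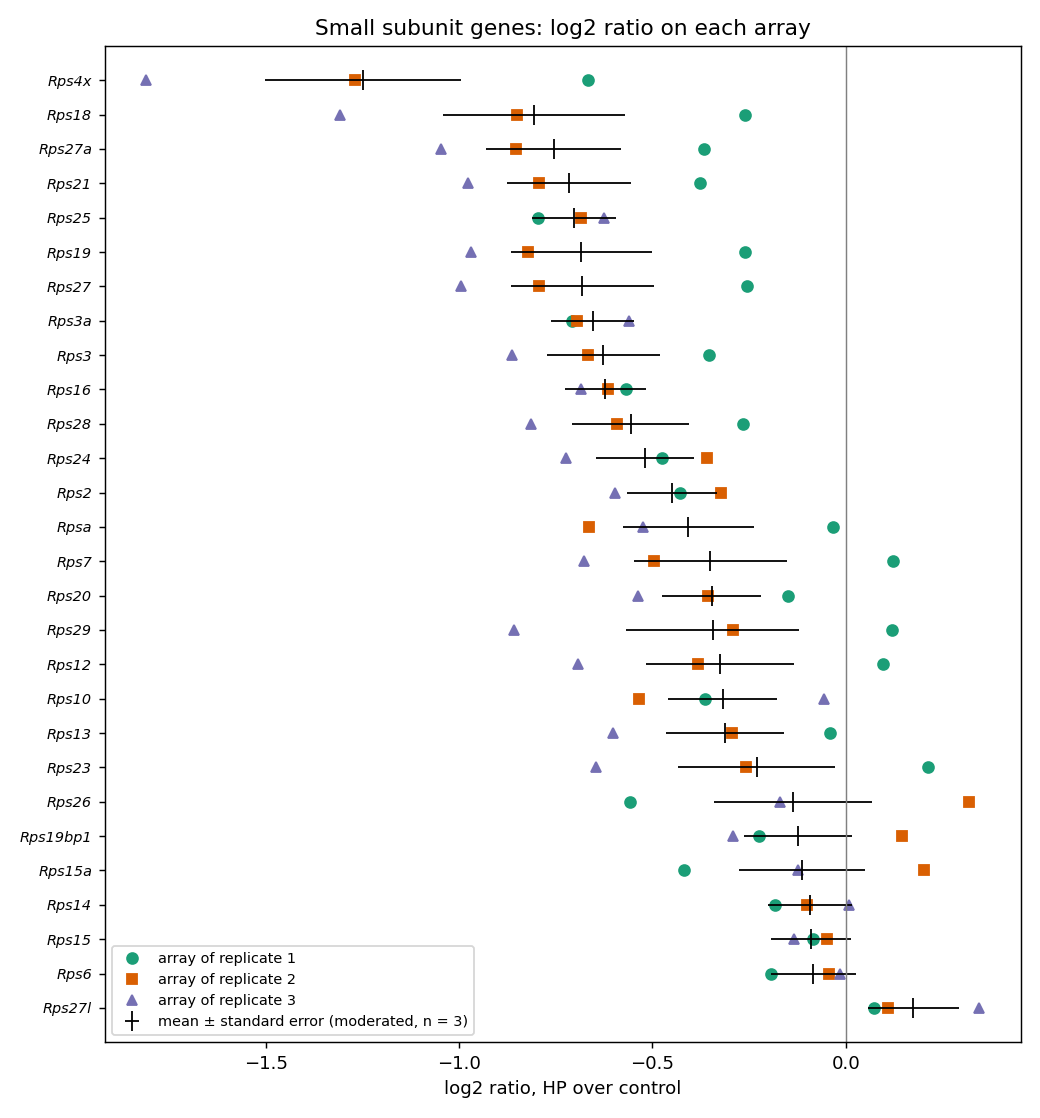
Log2 ratio (HP over control, horizontal axis) of each of 28 tested small subunit genes, with 1 coloured point per array and a bar for the mean and its moderated standard error over 3 arrays. Means run from −1.25 for Rps4x at the top to 0.18 for Rps27l at the bottom, and 19 genes have all 3 points left of 0.

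The arrays did not weigh equally. The median over the 32 genes was −0.31, −0.46 and −0.64 on replicates 1, 2 and 3, and 27, 27 and 29 of the genes were below 0 there. Over all tested genes these medians were −0.02, −0.01 and 0.004. The HP pool of replicate 1 was the highest of the 3 HP pools in 23 of the 32 genes. These counts per array and per pool were not made over all tested genes. Across the 32 genes the ratios of replicates 2 and 3 correlated at r = 0.83, those of replicates 1 and 2 at 0.32 and those of replicates 1 and 3 at 0.19. Over all tested genes the same pairs correlated at 0.65, 0.23 and 0.22, so the order of the pairs was not particular to the small subunit genes. These values are a description, since genes of an array share its labelling and normalization. The HP pools of replicates 2 and 3 also stood close together, with an SD of their log2 difference of 0.195 over the 32 genes, against 0.242 to 0.471 for the other pairs of pools. Over all tested genes this SD was 0.231, against 0.463 to 0.642 for the other pairs. With these 2 replicates averaged and counted as 1, 9 genes in place of 16 were lower at an unadjusted limma p under 0.05. In that setting 6.77% of all genes were lower, and the median of the 32 genes was −0.39. Leaving out replicate 1, 2 or 3 gave 21, 9 or 5 small subunit genes lower, where 14%, 5.9% or 6.15% of all genes were lower.

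Rps3, at the entry of the messenger channel and also a DNA repair protein, had 4390.5, 3310.3 and 3284 units of normalized intensity of its end probe in HP pools, against 5606, 5258 and 5969 units in control pools. All HP pools lay under all control pools, with a log2 ratio of −0.63 ± 0.15 (standard error over 3 arrays) and a limma adjusted p of 0.190. Rps2, its neighbour at the entry, had a log2 ratio of −0.45 (−0.43, −0.32 and −0.60 on the 3 arrays), which was below 0 throughout. Rps9, the remaining protein of the entry site, could not be tested, since its probe was well above background in 0 HP pools and 1 control pool.

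On the exit side of the channel the values were unequal. Rps28, which contacts the messenger RNA at its exit, had a log2 ratio of −0.56 (−0.26, −0.59 and −0.82 on the 3 arrays). Rps14 and Rps26, both near the exit, were closer to 0, with log2 ratios of −0.09 ± 0.11 and −0.14 ± 0.21. Rps26 was at −0.56 on replicate 1 and 0.32 on replicate 2.

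Rpsa, the laminin receptor precursor at the back of the subunit, had 150.0, 82.6 and 115 units in HP pools, against 153, 131 and 166 units in control pools. The HP pool of replicate 1 lay within the control range, so the groups overlapped. Its signal was well above background in 1 HP pool and 3 control pools, and its log2 ratio was −0.41 ± 0.17 (limma adjusted p = 0.304).

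Rps21, a small protein that lies beside Rpsa, had 3243, 2299 and 2285 units in HP pools, against 4213, 3986 and 4498 units in control pools. The groups did not overlap, and HP replicate 1 was the highest of the HP pools. Its log2 ratio was −0.72 ± 0.16 (limma adjusted p = 0.189). The other tested probes of Rps21 gave −0.73 and −0.76.

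Around the decoding site and the head of the subunit the values were unequal. Rps16, whose tail reaches the transfer RNA in the P site, had 9579, 8363 and 7714 units in HP pools, against 14194, 12812 and 12394 units in control pools. Every HP pool was well under every control pool, and the 3 arrays agreed closely at −0.57, −0.62 and −0.68, with a mean of −0.62 ± 0.10 (limma adjusted p = 0.174). Rps18, also close to the P site, had a log2 ratio of −0.81 ± 0.24. Rps15, which likewise reaches into the decoding centre, was near 0 at −0.09 ± 0.10, from a dim probe, and Rps23, a protein of the decoding centre, had a log2 ratio of −0.23 ± 0.20, with 0.21 on replicate 1 and −0.65 on replicate 3.

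Rps25, a protein of the head that some viral internal ribosome entry sites depend on, had 527, 414 and 454 units in HP pools, against 916, 666 and 701 units in control pools. The groups did not overlap, and replicate 1 was brightest in both. Its log2 ratio was −0.70 ± 0.11 (limma adjusted p = 0.174).

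Rps19, the gene most often mutated in human Diamond-Blackfan anaemia, had a log2 ratio of −0.68 ± 0.18, with −0.26, −0.82 and −0.97 on the 3 arrays.

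Rps10 and Rps20, which in human cells are ubiquitylated when ribosomes collide, had log2 ratios of −0.32 ± 0.14 and −0.35 ± 0.13. Both were below 0 on all 3 arrays, and neither was among the 16 (limma adjusted p = 0.319 and 0.276). Rps29, a small zinc-binding protein of the head, had a log2 ratio of −0.34 ± 0.22. Rps12 of the head was at −0.33 ± 0.19. Both were above 0 on replicate 1 (0.12 and 0.10) and lowest on replicate 3 (−0.86 and −0.69).

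In the body of the subunit Rps4x had the lowest log2 ratio of all. This X-linked gene had 2175, 1737 and 1615 units in HP pools, against 3453, 4192 and 5660.2 units in control pools. The groups did not overlap, and both the lowest HP pool and the highest control pool belonged to replicate 3. The log2 ratio of −1.25 ± 0.25 corresponds to −0.67, −1.27 and −1.81 on the 3 arrays (limma adjusted p = 0.176).

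Rps3a, which takes part in binding of initiation factor eIF3 and is now named Rps3a1, had 197, 117 and 142 units in HP pools, against 322, 190.2 and 209.5 units in control pools. HP replicate 1 lay between the control pools, so the groups overlapped, although every array was below 0. Its log2 ratio was −0.65 ± 0.11 (limma adjusted p = 0.174).

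Rps24, a protein of the body, was at −0.52 ± 0.13 and below 0 on all 3 arrays. Rps13, at −0.31 ± 0.15, and Rps7, at −0.35 ± 0.20, were not among the 16 (limma adjusted p = 0.347 and 0.387).

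Rps6 is the substrate of S6 kinase and the usual readout of mTOR activity through its phosphorylation, which arrays do not measure. It had 98.7, 91.6 and 94.9 units in HP pools, against 113, 94.5 and 95.8 units in control pools, close to the background. The groups overlapped, and its log2 ratio was −0.08 ± 0.11 (limma adjusted p = 0.683). Rps15a, a protein of the body, was at −0.11 ± 0.16, with −0.42 on replicate 1 and 0.20 on replicate 2.

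Rps27a is made as a fusion to ubiquitin, which is cut off to feed the free ubiquitin pool. It had 2937, 3383 and 2711 units in HP pools, against 3788, 6111 and 5599.7 units in control pools. The groups did not overlap, and its log2 ratio was −0.76 ± 0.17 (limma adjusted p = 0.190).

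The paralogues Rps27 and Rps27l, of which Rps27l is known as a target of p53, stood on opposite sides of 0. Rps27 had 8769, 6694 and 5791 units in HP pools, against 10459.5, 11602 and 11547 units in control pools, with no overlap and a log2 ratio of −0.68 ± 0.19 (limma adjusted p = 0.214). Rps27l had 2606, 2469 and 2013 units in HP pools, against 2479, 2289.8 and 1586 units in control pools. These groups overlapped, each HP pool was over the control pool of its own array, and the log2 ratio was 0.18 ± 0.12 (limma adjusted p = 0.445). The log2 ratio of Rps27l was above that of Rps27 by 0.33, 0.90 and 1.34 on the 3 arrays, a mean of 0.86 ± 0.51 (SD). The two-sided exact sign-flip permutation test gave p = 0.25, the smallest that 3 arrays allow.

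Rps19bp1, which binds S19 and activates the deacetylase SIRT1, had 210.2, 154 and 156 units in HP pools, against 246, 139 and 191 units in control pools. The groups overlapped, with a log2 ratio of −0.12 ± 0.14, and its second tested probe gave 0.07 ± 0.30.

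**Figure D2:**
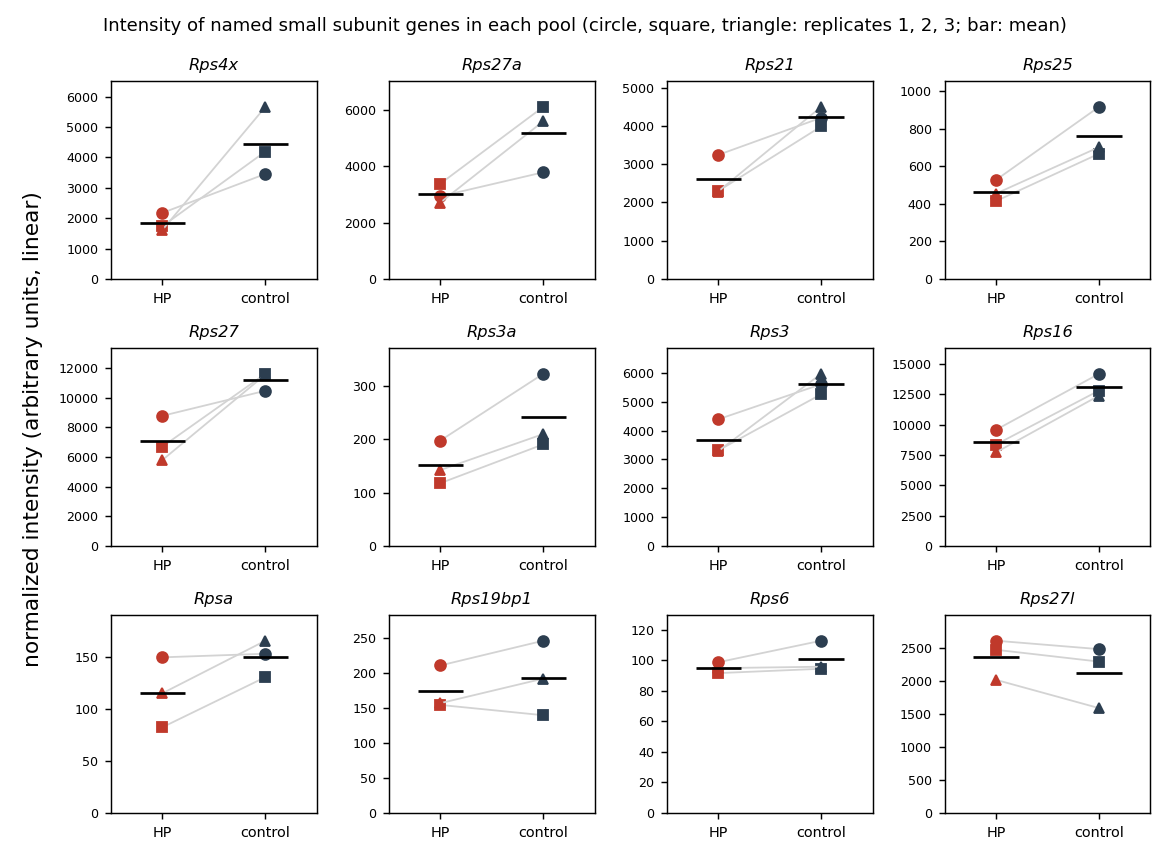
Normalized intensity (arbitrary units, linear vertical axis from 0, a scale of its own in each panel) of 12 named genes in the 3 HP pools (left, red) and the 3 control pools (right, dark), with marker shapes for replicates, grey lines joining the pools of 1 array and black bars for means. Rps4x, Rps16, Rps21 and Rps25 show HP pools wholly under control pools, while Rps6 and Rps27l overlap.

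Probes of the same gene mostly gave the same direction. Of the 9 genes with at least 2 tested probes, Rps3 and Rps19bp1 had probes with means on opposite sides of 0. The inner probe of Rps3 had 125, 128 and 169.6 units in HP pools, against 100.1, 91.9 and 152 units in control pools. These groups overlapped, yet the probe was higher in HP on every array, at 0.32, 0.48 and 0.16, where the end probe was lower on every array. The inner probe lay above the end probe by 0.95 ± 0.24 (SD over 3 arrays), given with no test, since the pair was chosen for its opposite signs. The value of Rps3 therefore depends on which probe is read.

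Both Rps18 probes were below 0, but by unequal amounts, at −0.81 ± 0.24 for the end probe and −0.27 ± 0.11 for the dimmer inner probe. The 3 probes of Rps28 gave −0.56, −0.54 and −0.78, and the Rps3a probes −0.65 and −0.39. The Rps28 probes at −0.56 and −0.54 have overlapping placements in the array design, so they cannot be taken as independent measurements. Of the 3 probes of Rps21, those at −0.73 and −0.76 overlap by 42 bases and are no independent measurement of each other, while the probe that stands for the gene lies apart. Ribosomal protein genes have many processed pseudogenes, the probes were not realigned to a genome, and 14 genes have 1 probe each, so signal from near-identical copies cannot be separated.

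The bright and the dim members are described apart. Of the 32 genes, 18 lay in the brightest 10% of all tested genes, by mean log2 intensity of the probe. These 18 had a median log2 ratio of −0.54, with 13 below 0 on all 3 arrays and 11 lower at an unadjusted limma p under 0.05. All 726 genes of that brightness had a median of 0.07, with 189 below 0 on all 3 arrays, 116 lower and 158 higher at an unadjusted limma p under 0.05. The other 14 small subunit genes had a median of −0.23, with 9 below 0 on all 3 arrays and 5 lower. Among the 18 bright genes the lowest of the 3 ratios was that of replicate 3 in 17, and their medians were −0.26, −0.48 and −0.77 on replicates 1, 2 and 3. All 726 genes of that brightness had medians of 0.07, 0.06 and 0.04 there. Among the other 14 genes the lowest ratio was that of replicate 1 in 8, with medians of −0.38, −0.28 and −0.23. How often each replicate was lowest was not counted over all genes.

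**Figure D3:**
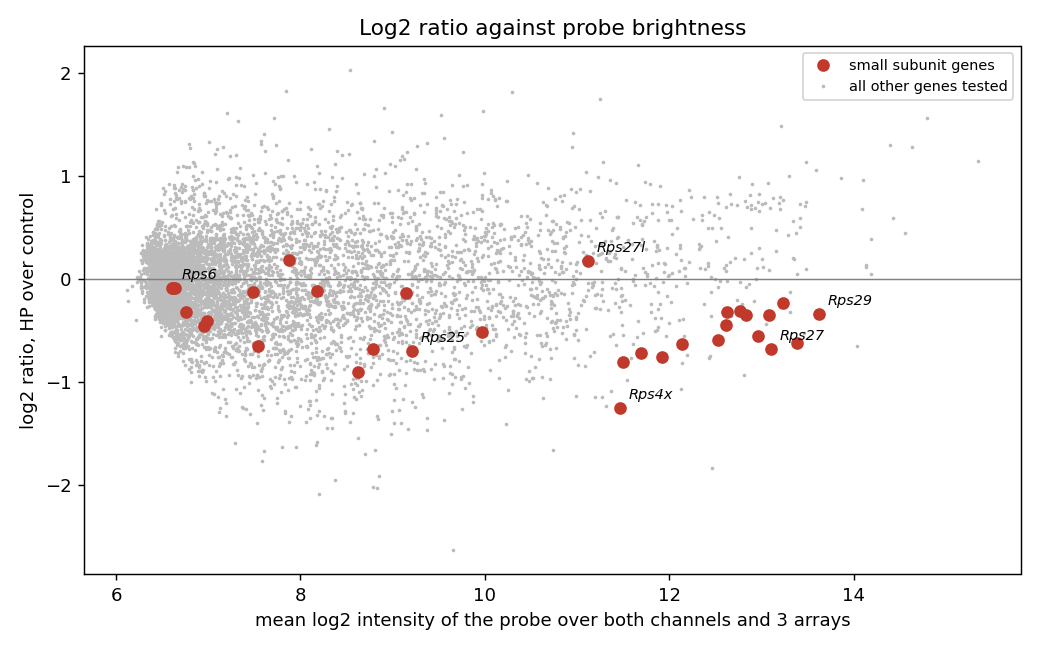
Log2 ratio (HP over control) against mean log2 intensity of the probe for all tested genes, with the 32 small subunit genes in red and the other genes in grey. The bright small subunit genes lie in the lower part of the cloud with a median of −0.54, except Rps27l at 0.18.

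The genes around the small subunit were counted from lists, beside the background of 11.2% of all genes lower and 7.25% higher at an unadjusted limma p under 0.05. The counts are given without single replicates too, since these moved them. Of all genes, 5.9% were lower without replicate 2, 6.15% without replicate 3 and 6.77% with replicates 2 and 3 averaged. With scale normalization between arrays 8.31% were lower, and under median centring 35.1%. Of 46 tested large subunit proteins, 29 were lower and 0 higher, with a median log2 ratio of −0.49. The lower count was 17 without replicate 2, 12 without replicate 3, 16 with replicates 2 and 3 averaged and 11 with scale normalization between arrays. Over the 42 large subunit genes tested through both channels, in the setting of the report, 27 were lower and 0 higher, with a median of −0.53. For this list and those below, the share over all genes tested through both channels was not counted. Under the stricter filter of both channels above background on all arrays, 13.8% of all genes were lower. Rpl22, which binds RNA outside the ribosome too, was at −1.21 ± 0.13 and Rpl35 at −0.99 ± 0.12. Rpl21 and Rpl39l, a paralogue known from the testis, were above 0 at 0.56 ± 0.21 and 0.33 ± 0.16, neither among the genes counted (limma adjusted p = 0.285 and 0.346). Of 17 other transcripts known for a TOP start, 9 were lower and 0 higher, with a median of −0.38. The lower count was 5 without replicate 2, 3 without replicate 3 and 4 with replicates 2 and 3 averaged. Eef1g, of the elongation factor 1 complex, was at −0.86 ± 0.11 (limma adjusted p = 0.174), and the histone chaperones Npm1 and Nap1l1 were at 0.10 ± 0.13 and 0.57 ± 0.48.

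Of 30 tested initiation factors that act on the small subunit, 10 were lower and 3 higher, with a median of −0.30. Without replicate 2 there were 4 lower and 0 higher, without replicate 3 there was 1 lower and 0 higher, and with replicates 2 and 3 averaged 2 lower and 1 higher. Under median centring all 30 were below 0, with 26 lower and 0 higher, where 35.1% of all genes were lower. Over the 27 tested through both channels, in the setting of the report, 10 were lower and 3 higher, with a median of −0.30. Eif3c, a core subunit of eIF3, was at −0.68 ± 0.16 and Eif1b at −0.62 ± 0.15. Eif1, which guards start codon choice, was at 0.50 ± 0.10 and Eif4g2 at 0.42 ± 0.12. All 4 were among the genes counted, with limma adjusted p-values of 0.177 to 0.223. This list and the TOP list share Eif3e, Eif3h and Eif4b among their tested genes.

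Of 35 tested factors that assemble the small subunit, 5 were lower and 3 higher, with a median of −0.07, and this median was 0.03 with the log ratios of the scanner software and 0.02 with scale normalization between arrays. Without replicate 3 there were 3 lower and 1 higher, and under median centring 14 lower and 0 higher. Wdr46, a nucleolar scaffold of the small subunit processome, was at −1.33 ± 0.12 and Mphosph10, of the same complex, at −0.73 ± 0.12. Pno1, which accompanies the last steps of 18S RNA maturation, was at 0.82 ± 0.14 and Wdr3 at 0.64 ± 0.14. All 4 were among the genes counted, with limma adjusted p-values of 0.174 to 0.189.

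Of 15 tested regulators of ribosomal protein synthesis, 5 were lower and 2 higher, with a median of −0.17. Over the 12 of them tested through both channels the median was −0.07, with 4 lower and 2 higher, and without replicate 2 there were 2 lower and 1 higher. Larp1, which binds TOP transcripts and holds back their translation, was at −0.90 ± 0.17, and the cap-dependent translation repressor Eif4ebp1 at −0.69 ± 0.12. Its relative Eif4ebp2 was at 0.60 ± 0.18 and Rheb, the activator of mTOR, at 0.40 ± 0.14. Of 8 quality control genes of the 40S subunit tested through both channels, 2 were lower and 2 higher, with a median of 0.19, whereas all 10 tested genes of this list had a median of −0.14. Without replicate 3, 0 of the 10 were lower and 1 was higher. Serbp1, which binds idle ribosomes, was at −0.56 ± 0.11. Rnf10, known in human cells as the ubiquitin ligase of Rps2 and Rps3, was at 0.39 ± 0.11, and Pelo, which helps to split stalled ribosomes, at 0.54 ± 0.15. Gigyf2, a repressor at collided ribosomes, was not well above background in any HP pool, so no ratio is given.

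**Figure D4:**
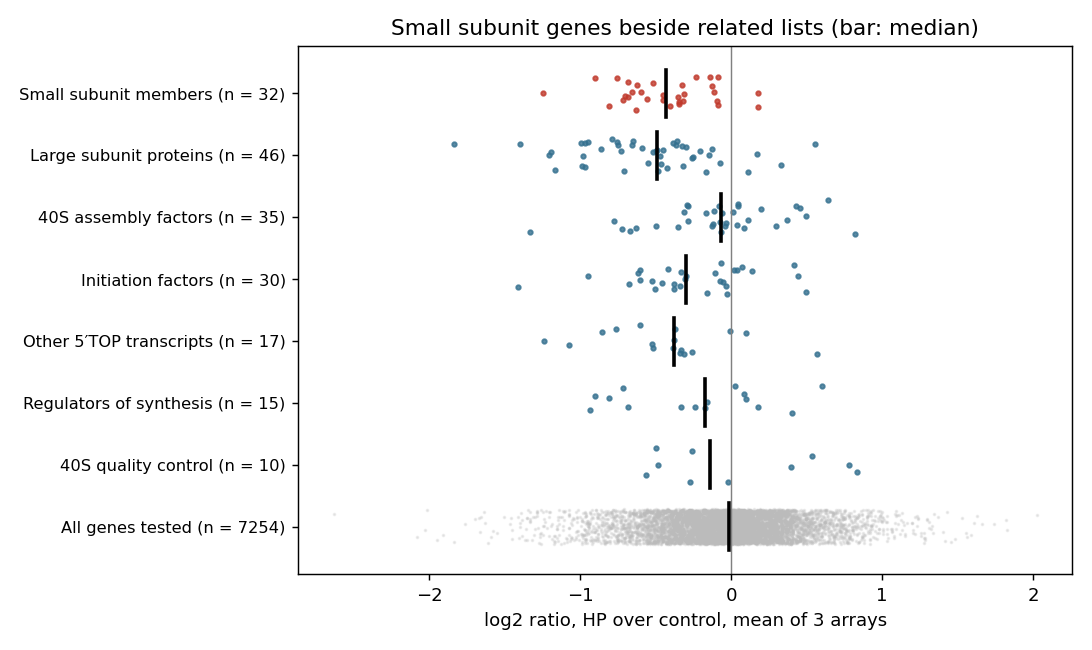
Mean log2 ratio (HP over control, horizontal axis) of each tested gene in 7 lists and of all 7254 tested genes, with a black bar for each median. The small subunit (−0.43) and large subunit (−0.49) medians lie left of 0, while those of the assembly factors (−0.07) and of all genes (−0.01) lie close to it.

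The size of these ratios depends on how the arrays are scaled. With the log ratios of the scanner software the small subunit median was −0.69, beside 0.05 over all tested genes. Under median centring, used instead of loess, the small subunit median was −1.48 and that of all tested genes −0.39, and all 32 genes were then below 0, among them Rps27l at −0.84. Dim probes moved with the treatment of the background. With a background offset of 0 in place of 50, Rpsa was at −0.80 and Rps10 at −0.66, and with the log ratios of the scanner software they were at −2.01 and −1.19. Under median centring 20 of the 32 genes passed an adjusted limma p of 0.05, as did 1047 of all genes, 1042 of them lower. The small subunit median lay under the median of all genes under every setting tried, by 0.33 to 1.09 on the log2 scale.

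**Figure D5:**
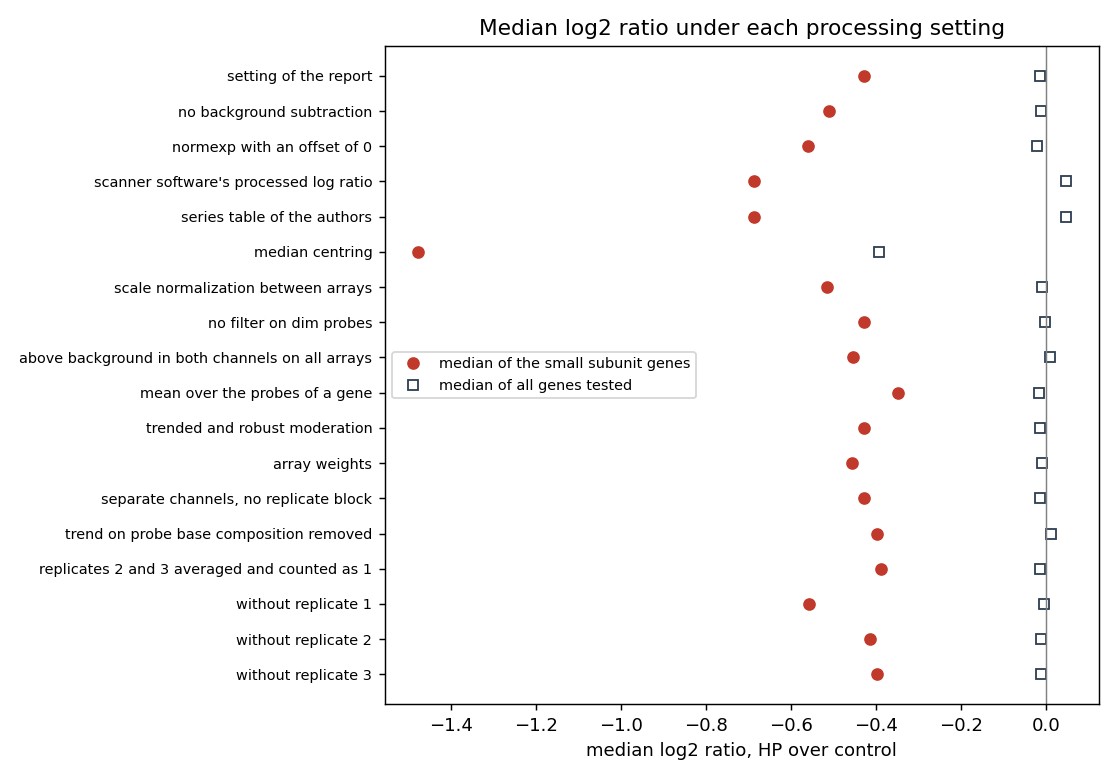
Median log2 ratio (HP over control) of the small subunit genes (red circles) and of all tested genes (open squares) under the setting of the report and 17 others, 1 per row. The red circle lies left of the square in every row, closest with the mean over probes (−0.35) and farthest with median centring (−1.48).

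The starts of the genes carry the TOP feature in part. In the RefSeq promoter table (GRCm38.p6), which held 25 of the 33 genes, a C at the annotated start followed by at least 4 further C or T bases on the sense strand was found in 6 genes or 24%, where 3.01% of 27025 genes had it. A C followed by 6 C or T bases within 30 bases of the start was found in 60% of the 25 genes and 29.7% of all. The ETS core CCGGAAG, on either strand of the 300 bases around the start, was found in 44% of the 25 genes and 9.93% of all. The 30 bases around the start are shown for the 6 genes, with the tract from the annotated start in capitals. They lie at chr17:27635230-27635259 (minus strand) for Rps10, chr7:118116133-118116162 (minus) for Rps15a, chr17:33955651-33955680 (minus) for Rps18, chr2:180257364-180257393 (plus) for Rps21, chr3:90213634-90213663 (minus) for Rps27 and chr4:86857353-86857382 (minus) for Rps6.
Rps10: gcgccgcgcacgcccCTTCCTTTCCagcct
Rps15a: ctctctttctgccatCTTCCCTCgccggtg
Rps18: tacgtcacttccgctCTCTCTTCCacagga
Rps21: taccgaggacccgccCTCCTgcccaatagt
Rps27: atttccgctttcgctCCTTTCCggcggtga
Rps6: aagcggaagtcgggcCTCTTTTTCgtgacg

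The log2 ratios of these 6 genes were −0.32 for Rps10, −0.11 for Rps15a, −0.81 for Rps18, −0.72 for Rps21, −0.68 for Rps27 and −0.08 for Rps6. They lay in both the lower and the upper part of the range of the 32 genes. A match is a description of these letters only, and a missing match says nothing about the gene, since annotated starts can be off by a few bases.

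The markers of the sample were checked beside these results. Of 16 markers of the oocyte and early embryo on the array, 9, 9 and 9 were well above background in HP pools and 9, 11 and 8 in control pools. Their summed raw signals were 22502 to 31299 units in HP and 25743 to 41713 units in control. All sums here are of raw mean signals, neither background-subtracted nor normalized, so they do not compare HP with control. By normalized log2 ratio Khdc3 was at −1.30, and all other tested markers of this list were above 0, up to 1.48 for Oog1. Zp2, Nlrp5, Ooep, Zar1 and Nanog were not well above background. Of 13 cumulus and granulosa cell markers, 1, 0 and 0 were above background in HP pools and 1, 1 and 0 in control pools, with sums of 1073 to 1132 units in HP and 1179 to 1298 units in control over 24 probes. Of 8 sperm markers, 1, 1 and 0 were above background in HP and 1, 2 and 1 in control, with sums of 526 to 558 units in HP and 591 to 657 units in control. Of 2 blood markers, 1 was above background in each HP pool, and 0, 1 and 0 were in control pools. The share of probes above background was 17.5% to 19.9% in HP and 18.5% to 23.2% in control, and the part of this difference in the results was not tested.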

How the data were processed

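The 3 two-colour arrays of HP (Cy5) and control (Cy3) embryo pools were analysed. Per the labels, 240 pg of total RNA was amplified in successive rounds before labelling. Agilent Feature Extraction 9.5.1.1 read the scans, per the submitters' processing notes. The deposited mean signals and median local backgrounds are intensity values without subtraction, per the file headers. Deposited log ratios are log10 values of processed Cy5 over Cy3 signals, per the file headers, and the authors' series table repeats them as log10 values (largest difference 5e-10).

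Mean signals were background-corrected by normexp (offset 50) and normalized by loess in limma 3.58.1 (R 4.3.3), with control spots at weight 0. Outlier spots (208, 172 and 325) were left out, and no probe of the group was saturated. A probe was tested when well above background on 2 or more of the 3 arrays in 1 channel, and 2 of the 43 small subunit probes passed through the control channel alone (Rpsa, and the second probe of Rps2). The brightest tested probe stood for the gene. Intensities per pool come from the loess ratio and the quantile-normalized mean of both channels, on a linear scale, and only compare pools for 1 probe.

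An intercept was fitted to the log2 ratio of the 3 arrays with empirical Bayes moderation, and p-values were adjusted by Benjamini-Hochberg over 7254 genes. Standard errors are moderated. The limma fit was tested on simulated log2 ratios, and the steps before it were not. HP and control pools of the same number share an array, which is the pairing. The labels call the replicates biological, and pools of 24 to 44 embryos give no spread between embryos. All arrays were on 1 slide. Array number limits precision.

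Members, gene lists, settings and the rule for named genes were chosen with earlier results of these data known. Named in full were the 10 members with the smallest p among those below 0 on all 3 arrays, those above 0, the Rps27 and Rps4 paralogues, Rpsa, Rps6, Rps27a and members whose probes disagree in sign. Of other lists, up to 2 genes in each direction were named. A few of the genes this rule picks are left unreported. Symbols were updated to RefSeq by accession (22951 probes), symbol (6659) or synonym (3109), and kept otherwise (8455). No genome or protein sequence was used here.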

Additional observations from a re-analysis of the deposited data

How the results depend on the processing

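The count of small subunit genes lower at an unadjusted limma p under 0.05 was 16. It became 29 under median centring, 5 after scaling between arrays and 9 with replicates 2 and 3 averaged as 1. Of all genes, 35.1%, 8.31% and 6.77% were lower in these settings, beside 11.2% in the setting of the report. At a p under 0.01 it was 5, and the share of all genes was not counted. Leaving out a replicate gave 5 to 21 genes, with 21, 9 and 5 without replicates 1, 2 and 3. Of all genes, 14%, 5.9% and 6.15% were lower there. The other settings gave 14 to 18. Of all genes, 4.2% were lower without a filter on dim probes, and 13.8% among those above background in both channels on all arrays. With separate channels and no replicate block, limma gave 17 such small subunit genes, where 10.9% of all genes were lower. In that setting 0 genes passed adjustment (lowest limma adjusted p 0.0551), so dropping the pairing added no gene past adjustment. The count of all genes past an adjusted p of 0.05 was 0 except with median centring, where it was 1047 (1042 lower). The median of the group was −0.69 with the log ratios of the scanner software, −0.69 with the series table that repeats them and −1.48 with median centring, and −0.56 to −0.35 otherwise. Rps27l turned to −0.84 with median centring. Over the comparisons of a named gene with a setting, 193 kept direction and side of the threshold, 8 passed the adjusted threshold, all under median centring, and 1 turned. The cause was not tested. Dim probes (Rps6, Rps10, Rps14, Rps15, Rpsa) limit the ratios of these genes.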
